A study of Homo sapiens with 9 samples.

Results

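The Ig-family adhesion molecules followed here are 7 of the 60606 genes of the deposited table, ICAM1, ALCAM, MCAM, L1CAM, NCAM1, CADM1 and BSG. They were taken from the table by symbol, as cell surface molecules of the immunoglobulin (Ig) family, with earlier results of these data known. RNA was sequenced from 3 libraries each of U87, GSCs and Diff cells, 9 libraries in all. U87, a long-established cell line from a human glioblastoma, was grown in DMEM with 10% FBS and was not irradiated. GSCs are stem cells derived from U87, kept without serum in DMEM/F12 with B27 and with bFGF and EGF, each at 20 ng/ml, and irradiated in 13 rounds of 5 Gy. Diff cells were differentiated from the irradiated GSCs in 10% FBS and were grown from cells picked out of clonal communities. GSCs therefore differed from U87 in medium, stem cell derivation and irradiation together, and their parts in any difference cannot be told apart. Diff cells shared the serum of U87 and the irradiation history of GSCs, and none of the 3 groups was a non-irradiated stem cell culture. The statistics section of the study speaks of biological replicates in general, but nothing in the sources used here says of these 3 libraries per group whether they came from separate cultures, so the p-values measure only the spread between these libraries, which may be technical.

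Adhesion molecules of the Ig family carry Ig-like domains outside the cell, usually 1 membrane span and a short tail that links to the cytoskeleton. Some bind a copy of themselves on the neighbouring cell, others bind integrins, laminins or other Ig molecules. ICAM1 is the counter-receptor of the leukocyte β2 integrins and is induced by NF-κB. ALCAM binds itself and the T cell receptor CD6, MCAM binds laminins and galectins, L1CAM and NCAM1 are adhesion molecules of nerve cells, CADM1 is a synaptic and epithelial molecule known as a tumor suppressor, and BSG (basigin, CD147) escorts lactate transporters to the membrane. In glioma cells members of the family are studied for migration and for contact with immune cells and vessels.

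The values are TPM, transcripts of a gene per 1000000, which divide out gene length and library total. The TPM of each library summed to 1000000, so that levels of different genes can be set side by side, but the depth behind them is unknown and no counting interval or detection limit is given. Differences are on the scale of log2(TPM + 1), which understates changes of genes below a few TPM. They were tested with limma in 1 fit of all 9 libraries over the 22909 genes with a mean TPM over 1, and a gene is termed called when its Benjamini-Hochberg adjusted p was under 0.05 and its absolute log2 fold change over 1. Of the 7 members 6 passed the filter, and L1CAM did not. The 3 comparisons share libraries pairwise, so their results are not independent.

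In each library 31832 to 33079 genes were above 0, with 5.73% to 9.79% of all TPM in RN7SL1 and 25.9% to 31.8% in mitochondrial genes. The stem cell markers PROM1 and SOX2 were near 0 in every line, at means of 0.507 and 0.879 TPM in the libraries labelled GSCs. The radial glia marker FABP7 stood at means of 0.731 TPM in U87, 4.91 in GSCs and 2.86 in Diff cells, while nestin (NES), a marker of neural precursors, stood at 33.0, 22.6 and 13.5 TPM. GSCs is used as the name of the culture, since of these markers PROM1 and SOX2 were near 0, FABP7 was highest in GSCs and NES was highest in U87. They are among 14 stem and glial markers, of which 7, 8 and 7 were over a mean of 1 TPM in U87, GSCs and Diff cells. The 14 summed to 2055 to 2118, 1539 to 1824 and 912 to 968 TPM. Of 9 tested, 2 were called higher and 0 lower in GSCs against U87 (22.2%), beside 17.1% of all tested genes. For Diff cells these were 2 and 3 against U87 (55.6%) and 0 and 1 against GSCs (11.1%), beside 12.3% and 8.01%. The study reports CD133 (PROM1), SOX2 and FABP7 in GSCs by immunofluorescence, which RNA does not measure.

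ICAM1 (chr19:10270835-10286615, plus strand, GRCh38, GENCODE 29) was the member with the largest differences. Its RefSeq start lies at chr19:10271120, and 2 short stretches before it are shown because they hold letters of an NF-κB type site and of a TATA box. Capitals mark the NF-κB type letters GGAANTTCC and the letters TATAAA, both searched for on both strands. The sequences are from RefSeq promoters of GRCh38.p14, 250 bases before to 50 bases after each start. Both stretches lie within the first exon of a longer ICAM1 transcript of GENCODE 29.
ICAM1, NF-κB type, chr19:10270926-10270950, plus strand: tttagcttGGAAATTCCggagctga
ICAM1, TATAAA, chr19:10271082-10271103, plus strand: gctagcgcTATAAAggatcacg
The NF-κB type match began 186 bases before the start. GGAANTTCC stands in 0.965% of the 35116 RefSeq promoter windows and TATAAA in 11.5%. The letters TTCNNNGAA (GAS type), searched for as well, began 75 bases before the start of ICAM1 and stand in 7.66%. Windows were given for 5 of the 7 members, ICAM1, ALCAM, MCAM, L1CAM and BSG. Of these windows only that of ICAM1 held TTCNNNGAA. Neither the NF-κB letters (GGAANTTCC or GGGANNTTCC) nor the AP-1 letters TGANTCA were found in those of ALCAM, MCAM, L1CAM or BSG, and the AP-1 letters and GGGANNTTCC were not found in that of ICAM1 either, which says only that these letters are not in these windows.

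ICAM1 was measured at 3.50, 3.68 and 2.57 TPM in U87. In GSCs it was 35.8, 35.0 and 33.7 TPM. In Diff cells it was 10.5, 11.4 and 10.8 TPM. The 3 lines were fully separate, with GSCs highest, Diff cells in between and U87 lowest. The mean TPM was 10.7 times that of U87 in GSCs and 3.36 times in Diff cells. On the log2 scale the difference was 3.09 ± 0.108 (SE, n = 3 and 3, limma, adjusted p = 1.11e-07) for GSCs against U87, higher than 99.1% of all tested genes. ICAM1 rose by 1.50 in Diff cells against U87 (limma, adjusted p = 1.02e-05) and stood at -1.59 when Diff cells were set against GSCs (limma, adjusted p = 1.48e-05, 95% interval -1.84 to -1.34). Exons of noncoding genes on the other strand cover 23.6% of its exon bases, and 1 of them, AC011511.2, was at means of 0.389 TPM in U87, 0.295 in GSCs and 0.0997 in Diff cells. Whether the counting used strand is not given in the sources used here.

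**Figure D1:**
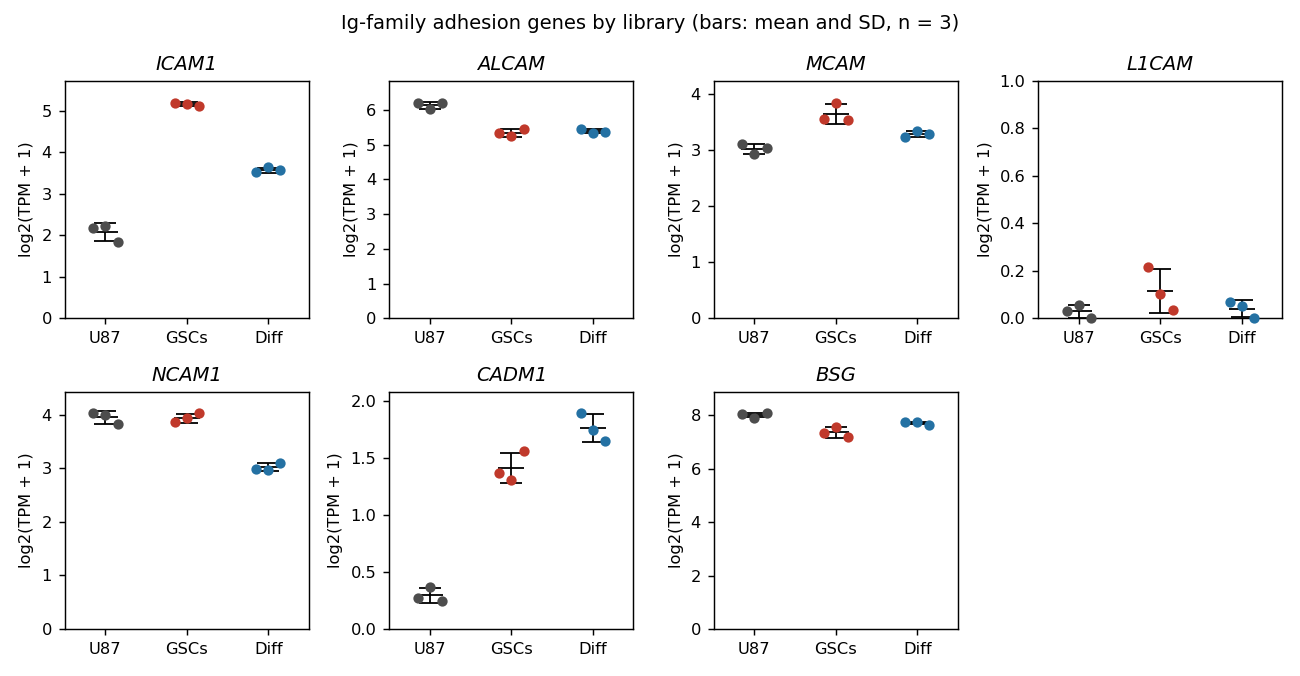
Level of each of the 7 members in log2(TPM + 1) (vertical axes, each with its own scale from 0) in the 3 libraries each of U87, GSCs and Diff cells, with points for libraries and bars for mean and SD. ICAM1 separates all 3 lines, CADM1 is low in U87 only, NCAM1 is low in Diff cells only, and L1CAM lies near 0 throughout.

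CADM1 (chr11:115169218-115504957, minus strand), a homophilic adhesion molecule of synapses and epithelia, was the other member called. U87 gave 0.206, 0.289 and 0.185 TPM. GSCs gave 1.59, 1.47 and 1.94 TPM. Diff cells gave 2.71, 2.35 and 2.14 TPM. Both irradiated lines lay above U87 with no overlap, and Diff cells also lay above GSCs in all libraries. CADM1 rose in GSCs against U87 by 1.12 ± 0.146 on the log2 scale (SE, limma, adjusted p = 0.000258) and in Diff cells against U87 by 1.47 (limma, adjusted p = 6.66e-05). The ratios of mean TPM were 7.35 and 10.6, larger than the log2 differences say, because U87 lay under 1 TPM. For Diff cells against GSCs the log2 difference of 0.35 did not pass (limma, adjusted p = 0.0963, 95% interval 0.02 to 0.68), though its adjusted p was 0.0291 with quantile normalization and 0.0270 with limma run without a trend. With a pseudocount of 5 in place of 1 the log2 differences of CADM1 against U87 shrank to 0.35 in GSCs and 0.50 in Diff cells, below the fold limit.

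NCAM1 (chr11:112961247-113278436, plus strand), the neural cell adhesion molecule that binds itself and carries polysialic acid, stood apart in Diff cells. U87 gave 15.3, 15.04 and 13.1 TPM and GSCs gave 13.5, 14.3 and 15.3 TPM. Diff cells gave 6.99, 6.85 and 7.61 TPM. The ranges of U87 and GSCs overlapped, while every Diff library lay below every other library. Between GSCs and U87 the log2 difference was -0.01 ± 0.088 (SE, limma, adjusted p = 0.925, 95% interval -0.21 to 0.19). In Diff cells NCAM1 fell by 0.93 on the log2 scale against U87 (limma, adjusted p = 5.08e-05) and by 0.91 against GSCs (limma, adjusted p = 0.000101), both just short of the fold limit. With a pseudocount of 0.1 the difference against U87 was -1.01 (limma, adjusted p = 5.13e-05) and passed it. Noncoding genes overlap 5.52% of its exon bases on the other strand. AP000802.1 was at means of 1.69 TPM in U87, 3.32 in GSCs and 1.47 in Diff cells, and NCAM1-AS1 was at a mean of 0.892 TPM or less in each line.

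ALCAM (chr3:105366909-105576900, plus strand), the activated leukocyte adhesion molecule, was lower in both irradiated lines. U87 gave 71.9, 64.2 and 73.2 TPM. GSCs gave 39.2, 36.7 and 42.8 TPM, and Diff cells gave 42.6, 39.5 and 40.5 TPM. Both lines lay below U87 without overlap and overlapped each other. ALCAM fell by 0.80 ± 0.074 on the log2 scale in GSCs (SE, limma, adjusted p = 3.1e-05) and by 0.76 in Diff cells (limma, adjusted p = 6.26e-05) against U87, less than the fold limit. The difference between Diff cells and GSCs was 0.05 (limma, adjusted p = 0.675, 95% interval -0.12 to 0.22).

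MCAM (chr11:119308529-119321521, minus strand), the melanoma adhesion molecule CD146 that also marks vessel cells, varied within a narrow span. It was 7.60, 6.64 and 7.25 TPM in U87 and 10.8, 13.4 and 10.6 TPM in GSCs. Diff cells gave 8.42, 9.17 and 8.80 TPM. The 3 lines did not overlap, in the order U87, Diff cells, GSCs. MCAM rose by 0.62 ± 0.105 on the log2 scale in GSCs against U87 (SE, limma, adjusted p = 0.00117). The 0.26 of Diff cells against U87 did not pass (limma, adjusted p = 0.0782, but 0.0397 for TPM without RN7SL1 and mitochondrial genes and 0.0427 with only the 6 libraries of both lines in the fit), and the -0.36 of Diff cells against GSCs did (limma, adjusted p = 0.0277). The last adjusted p went to 0.0701 without GSCs library 2 and to 0.0841, 0.0548 and 0.0732 without Diff library 1, 2 or 3 (limma, with the spread pooled over the lines). The list of endothelial and pericyte markers, to which vessel cells would add, summed to 165 to 171 TPM in U87, 101 to 114 in GSCs and 67.1 to 71.0 in Diff cells. Of its 14 genes 6, 7 and 6 were over a mean of 1 TPM in these lines. Its endothelial cadherin CDH5 was at a mean of 0.312 TPM or less in each line, while PECAM1 was at 2.77, 6.25 and 2.92 TPM. CBL, on the other strand, overlaps 6.86% of the MCAM exon bases and was at means of 38.0 TPM in U87, 68.2 in GSCs and 51.4 in Diff cells, and its part in the MCAM values was not tested.

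BSG (chr19:571277-583493, plus strand) was the most abundant member in every library. U87 gave 265, 240.3 and 269 TPM. GSCs gave 163, 188 and 143 TPM, and Diff cells gave 212, 212 and 201 TPM. The 3 lines did not overlap, in the order GSCs, Diff cells, U87. BSG fell by 0.65 ± 0.094 on the log2 scale in GSCs against U87 (SE, limma, adjusted p = 0.000457). The differences of Diff cells were smaller, -0.31 against U87 (limma, adjusted p = 0.0296) and 0.35 against GSCs (limma, adjusted p = 0.0199). The adjusted p against U87 was between 0.0614 and 0.0919 without U87 library 1, U87 library 3 or any 1 Diff library, and that against GSCs was 0.0553, 0.0587 and 0.0624 without GSCs library 1, Diff library 1 or Diff library 2.

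L1CAM (chrX:153861514-153886174, minus strand), the neural molecule tied to axon growth, was listed near or at 0. It was 0.0208, 0.0397 and 0 TPM in U87, 0.160, 0.0720 and 0.0229 TPM in GSCs and 0.0479, 0.0376 and 0 TPM in Diff cells. The ranges of all 3 lines overlapped, and L1CAM lay below the filter and was not tested. A list of neuronal markers summed to 323 to 361 TPM in U87, 248 to 381 in GSCs and 151 to 163 in Diff cells. Of the 12 genes of this list 6 were over a mean of 1 TPM in each line, while STMN2 was listed at 0 in all 9 libraries.

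Of the 6 members tested, 2 were called higher in GSCs against U87 and the same 2 for Diff cells, ICAM1 and CADM1, and 1 was called lower in Diff cells against GSCs, ICAM1. Among all tested genes 17.1%, 12.3% and 8.01% were called in these 3 comparisons, 9.52% and 5.92% as higher in the first and second and 5.36% as lower in the third. CADM1 passed the filter only through GSCs and Diff cells (means of 1.66 and 2.40 TPM, with U87 at 0.227). Its place among the tested members thus favoured a call as higher against U87. With the adjusted p alone, 5, 5 and 4 of the 6 members passed, beside 48.6%, 39.4% and 34.8% of all tested genes. The ranges of the libraries were separate for 5, 6 and 5 of the 6, beside 55.8%, 55.2% and 46.7% of all tested genes. The median log2 fold change over the members was 0.31, -0.02 and -0.16, and over all tested genes 0.02, -0.04 and -0.06. The members thus did not move together: ICAM1, CADM1 and MCAM were higher in GSCs than in U87, ALCAM and BSG lower, and NCAM1 overlapped.

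**Figure D2:**
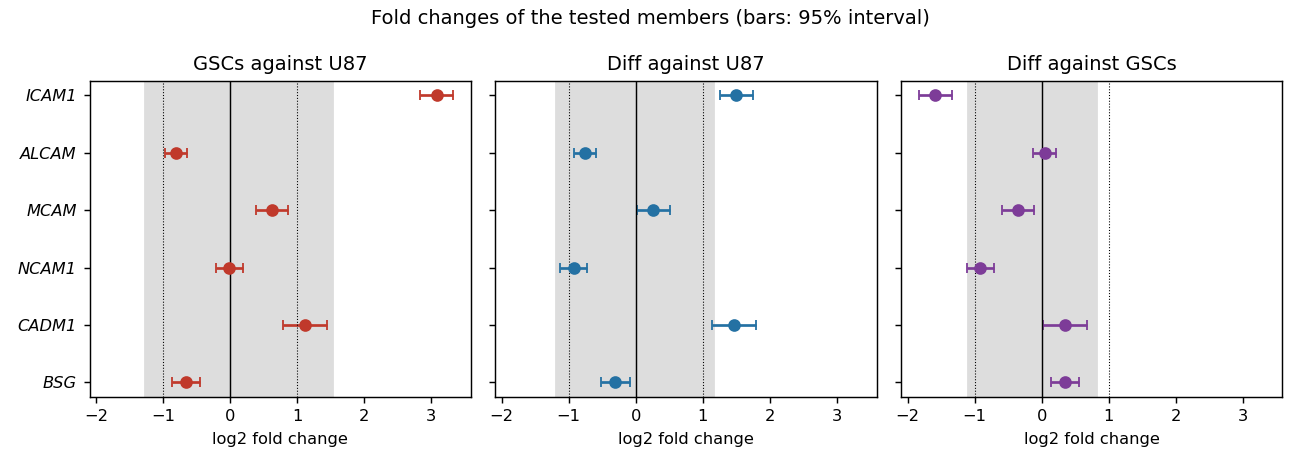
Log2 fold change of the 6 tested members (horizontal axis) in GSCs against U87, Diff cells against U87 and Diff cells against GSCs, with points for the estimate and bars for its 95% interval. The grey band spans the middle 90% of all tested genes and dotted lines mark the fold limit; ICAM1 lies outside the band in all 3 panels and CADM1 in the middle panel.

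These shifts changed the order of levels. In U87 the order by TPM was BSG, ALCAM, NCAM1, MCAM, ICAM1, CADM1 and L1CAM. In GSCs ICAM1 stood between ALCAM and NCAM1, and in Diff cells it stood between ALCAM and MCAM, with NCAM1 below MCAM. Within each line neighbours in the order had ranges that did not overlap. The summed TPM of the members was 353 ± 19.9 in U87, 267 ± 20.8 in GSCs and 279 ± 6.77 in Diff cells (SD, n = 3), of which BSG made up 73.1%, 61.5% and 74.8%. ICAM1 made up 0.927% of the sum in U87, 13.1% in GSCs and 3.92% in Diff cells.

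Of the 7 members 3 lie on the long arm of chromosome 11, and their neighbours were examined as the 12 tested protein-coding genes on each side. Around NCAM1 the median log2 fold change of the 24 neighbours was 0.60 in GSCs and 0.57 in Diff cells against U87, and 20 and 21 of them were above 0. NCAM1 itself lay below all 24 in Diff cells, against U87 and also against GSCs, where the median of the neighbours was 0.04. Its nearest neighbours PTS and TTC12 were at 0.58 and 1.20 in Diff cells against U87. Around CADM1 the medians were 0.55 and 0.54, with 20 and 22 of 24 above 0, and CADM1 lay above 20 of 24 in GSCs and above 24 of 24 in Diff cells. The neighbours of NCAM1 and of CADM1 have 15 genes in common, so these values are not independent.

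MCAM lay below the median of its surroundings in both lines. The 24 genes around it had a median of 0.79 in GSCs against U87, with 24 of 24 above 0, and MCAM at 0.62 lay above 9 of them. In Diff cells the median was 0.62 and MCAM at 0.26 lay above 3. Whether the copy number of this region differed between the lines was not tested. The neighbours of ICAM1 on chromosome 19 had medians of -0.30 and -0.03 against U87, and ICAM1 lay above 23 of 24 in both. Those of ALCAM had medians of -0.08 and -0.06, and ALCAM lay above 3 of 24 in both.

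**Figure D3:**
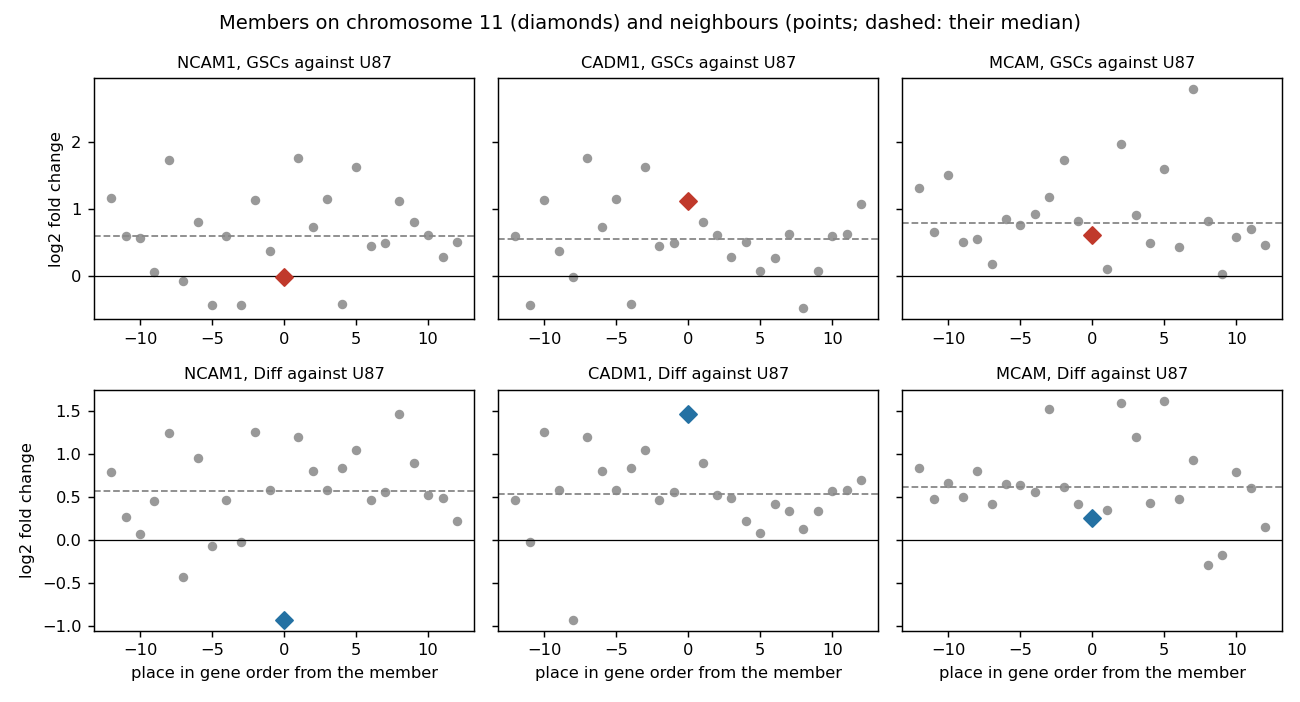
Log2 fold change (vertical axis) of NCAM1, CADM1 and MCAM (diamonds) and of the 12 tested protein-coding genes on each side (points, by place in gene order), in GSCs and in Diff cells against U87, with the median of the neighbours dashed. Most neighbours lie above 0; NCAM1 is below all 24 and CADM1 above all 24 in Diff cells.

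The binding partners of the members are a list of 42 genes, of which 29 were tested. Called higher and lower were 8 and 8 of them for GSCs against U87, 4 and 8 for Diff cells against U87, and 1 and 8 in Diff cells against GSCs. These are 55.2%, 41.4% and 31.0% of the tested partners, with medians of -0.19, -0.43 and -0.50 on the log2 scale, beside 17.1%, 12.3% and 8.01% of all tested genes. Partners of ICAM1 were led by ITGAX, the αX chain of a β2 integrin that binds ICAM1. ITGAX was 28.4, 29.03 and 21.0 TPM in U87, 563, 559 and 454 TPM in GSCs and 139, 140 and 140 TPM in Diff cells, with no overlap between lines. It rose in GSCs by 4.28 (limma, adjusted p = 5.09e-08) and in Diff cells by 2.39 (limma, adjusted p = 1.68e-06) against U87 and fell by 1.90 in Diff cells against GSCs (limma, adjusted p = 1.33e-05). ITGAX and ICAM1 had the same order of lines.

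The β2 chain with which αX pairs, ITGB2, was at means of 0.112 TPM in U87, 0.233 in GSCs and 2.14 in Diff cells and was below the filter. ITGAL and ITGAM, the chains of LFA-1 and Mac-1 that bind ICAM1 on leukocytes, were at most at means of 1.59 and 0.315 TPM, both in GSCs. Leukocyte markers summed to 17.3 to 21.5 TPM in U87, 9.63 to 10.9 in GSCs and 19.5 to 22.5 in Diff cells, with 3 of 12 genes over a mean of 1 TPM. The pan-leukocyte gene PTPRC was at a mean of 0.0829 TPM or less in each line and TYROBP at 0 in all 9 libraries. CD6, the T cell ligand of ALCAM, was at 1.54, 1.45 and 2.02 TPM in U87, and at means of 0.0564 TPM in GSCs and 0.118 in Diff cells, below the filter.

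**Figure D4:**
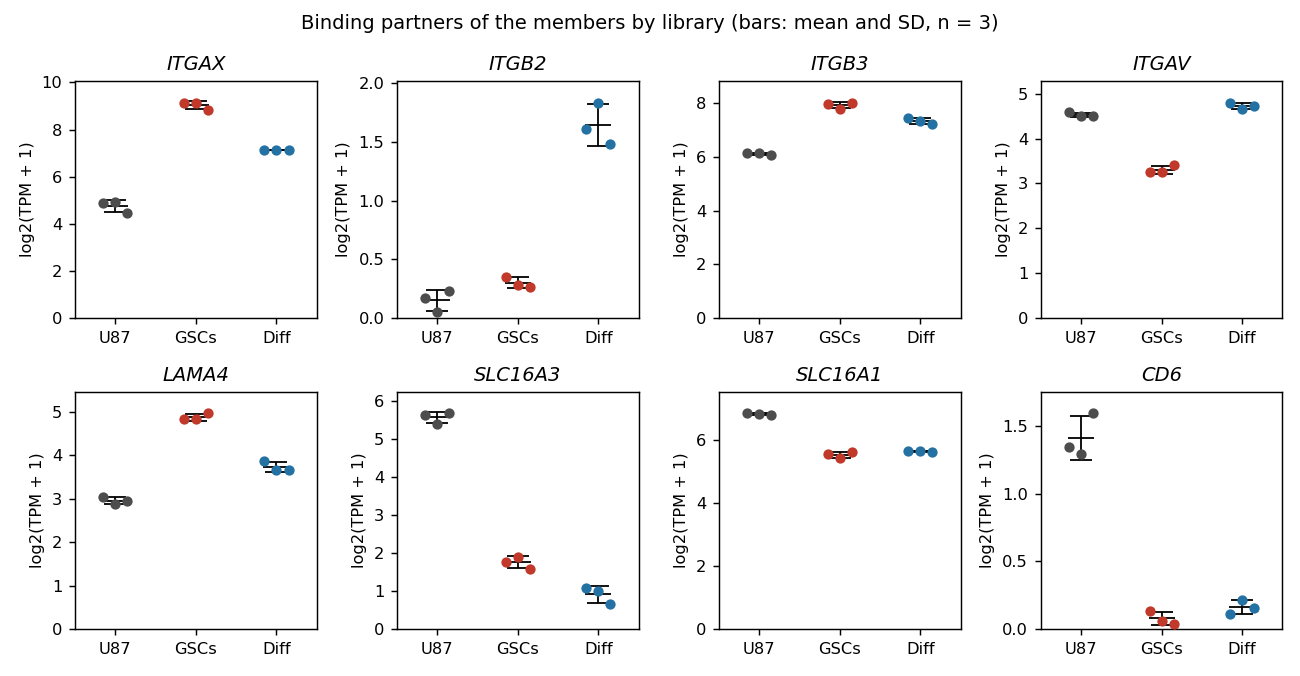
Level in log2(TPM + 1) (vertical axes, each with its own scale from 0) of 8 partners of the members in the 3 libraries each of U87, GSCs and Diff cells, with points for libraries and bars for mean and SD. ITGAX and LAMA4 are highest in GSCs, SLC16A3 and CD6 are highest in U87, and ITGB2 lies above the other lines in Diff cells only.

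Against U87 the lactate transporters escorted by BSG moved further than BSG. SLC16A3 (MCT4) was 48.6, 41.2 and 50.1 TPM in U87, 2.42, 2.73 and 2.00 TPM in GSCs and 1.12, 1.01 and 0.582 TPM in Diff cells. It fell by 3.82 in GSCs and by 4.65 in Diff cells against U87 on the log2 scale. SLC16A1 (MCT1) was at means of 112, 45.3 and 49.1 TPM in U87, GSCs and Diff cells, and fell by 1.29 in GSCs (limma, adjusted p = 4.35e-07) and by 1.17 in Diff cells. The glucose transporter SLC2A1 was at means of 225, 71.8 and 24.5 TPM and was called lower in all 3 comparisons, while EMB (embigin), which can take the place of BSG, was at most 0.0782 TPM in any library. PPIA, the secreted cyclophilin that binds BSG, was at means of 187, 235 and 237 TPM and was not called. MMP1, a collagenase held by BSG at the cell surface, was at means of 1.85, 32.2 and 3.05 TPM and rose in GSCs against U87 by 3.56.

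Among the integrin chains that bind L1CAM, ITGB3 was at means of 68.2, 242 and 162 TPM in U87, GSCs and Diff cells and rose by 1.81 and 1.23 against U87. Its values are uncertain, since 51.6% of its exon bases overlap AC068234.1 on the same strand. Its partner chain ITGAV was at 22.1, 8.87 and 25.6 TPM and fell by 1.23 in GSCs against U87, with 0.20 in Diff cells, and the difference of Diff cells against GSCs, 1.43, was itself called. The laminin chain LAMA4, a ligand of MCAM, was at means of 6.79, 28.5 and 12.3 TPM and rose by 1.92 in GSCs against U87. LAMA5 was at 14.7, 12.6 and 1.15 TPM and fell by 2.86 in Diff cells against U87. NRP1, a partner of L1CAM, fell by 1.83 and 1.72 in GSCs and Diff cells against U87, and PRNP, the prion protein that binds NCAM1, rose by 1.84 in GSCs against U87 and stood at 0.66 in Diff cells. For NCAM1, the polysialic acid enzyme ST8SIA4 was at means of 2.12, 0.885 and 1.05 TPM and was not called, ST8SIA2 was near 0, and the signaling partner FGFR1 at 53.0, 45.7 and 38.6 TPM was not called. EPB41L3, the linker that CADM1 binds inside the cell, was at a mean of 0.0374 TPM or less in each line.

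Of 32 linkers and sheddases, which anchor the tails of these molecules to actin or cut them off the surface, 29 were tested. In GSCs against U87 1 was called higher and 7 lower (27.6%), for Diff cells against U87 0 and 3 (10.3%), and in Diff cells against GSCs 2 and 1 (10.3%). Among all tested genes 17.1%, 12.3% and 8.01% were called, so that the shares for Diff cells lie near that background. TIMP3, an inhibitor of the ADAM sheddases, was at means of 39.2, 0.719 and 0.102 TPM and fell by 4.55 and 5.19 in GSCs and Diff cells against U87. The sheddase ADAM8 was at 38.4, 9.88 and 1.38 TPM and was called lower in all 3 comparisons. The main sheddases ADAM10 (27.1, 26.9 and 32.3 TPM) and ADAM17 (10.6, 13.1 and 9.64 TPM) were not called. Of the ERM proteins that link ICAM1 to actin, EZR was at 114, 78.5 and 174 TPM and rose by 1.14 in Diff cells against GSCs, and MSN at 246, 285 and 175 TPM was not called. ANK1, an ankyrin of the kind that holds L1CAM and NCAM1, was at 8.93, 2.68 and 12.7 TPM, lower in GSCs than in U87 by a log2 fold change of -1.42 and higher in Diff cells than in GSCs by 1.90.

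The inducers and co-targets of ICAM1 are a list of 42 transcription factors, NF-κB and AP-1 subunits among them, and of genes that such factors switch on, of which 35 were tested. In GSCs against U87 3 were called higher and 1 lower (11.4%), for Diff cells against U87 3 and 2 (14.3%), and in Diff cells against GSCs 2 and 3 (14.3%), with medians of -0.05, -0.25 and -0.17. Among all tested genes the shares called were 17.1%, 12.3% and 8.01%. TNFAIP3 (A20, the feedback inhibitor of NF-κB) and SOD2 (mitochondrial superoxide dismutase) had the order of lines of ICAM1. TNFAIP3 was at means of 7.55, 27.8 and 19.5 TPM and rose by 1.75 in GSCs (limma, adjusted p = 4.27e-07) and by 1.26 in Diff cells against U87. SOD2 was at 14.1, 47.3 and 31.7 TPM and rose by 1.67 and 1.11.

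Others of the list went a different way. FOS, an AP-1 subunit, was at means of 6.73, 31.1 and 4.96 TPM and rose by 2.02 in GSCs against U87 (-0.38 in Diff cells), falling by 2.40 in Diff cells against GSCs. CCL2, a monocyte chemokine, was at 0.641, 0.579 and 4.67 TPM and rose by 1.79 in Diff cells against U87. The chemokine CXCL3 (3.94, 1.36 and 0.902 TPM) and the cytokine IL6 (4.54, 2.38 and 1.50 TPM) were highest in U87, and CXCL3 fell by 1.08 and 1.37 and IL6 by 0.72 and 1.15 in GSCs and Diff cells against U87. NFKB2 was at 13.2, 23.2 and 10.3 TPM and fell by 1.08 in Diff cells against GSCs, as did TRAF1 by 1.18. The subunits RELA (-0.22 and -0.30) and NFKB1 (0.25 and 0.48 on the log2 scale against U87) were not called, and the endothelial selectin SELE, another NF-κB target, was listed at 0 in all 9 libraries.

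**Figure D5:**
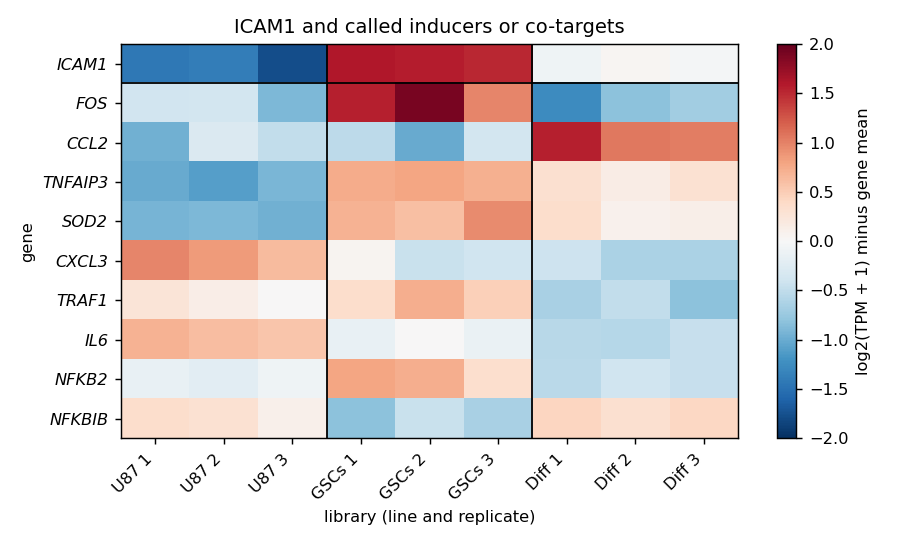
Heat map of ICAM1 (top row) and 9 called genes of its list of inducers and co-targets in the 9 libraries, coloured by log2(TPM + 1) minus the mean of the gene over the libraries (colour limits -2 to 2). TNFAIP3 and SOD2 follow the order of ICAM1 with GSCs highest, CXCL3 and IL6 are highest in U87, and CCL2 is highest in Diff cells.

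NF-κB letters stand near the starts of several genes of the list. Those shown were chosen with their values known, so the mix of directions among them is not a result. Whether these letters had a part in any difference was not tested. The stretches below set that of ICAM1 beside those of other genes of the list, with GGAANTTCC or GGGANNTTCC, or its reverse complement, in capitals. Where both sets of letters overlap, only GGAANTTCC is in capitals. CXCL3 holds GGGANNTTCC there on both strands and NFKBIA its reverse complement, while ICAM1 holds GGAANTTCC only. NFKBIA, the inhibitor IκBα, and CXCL8, a neutrophil chemokine, were picked after their values were seen, as genes of the list that were not called.
ICAM1, higher in GSCs and in Diff cells than in U87: tttagcttGGAAATTCCggagctga
NFKBIA, not called, chr14:35404814-35404838, minus strand: actggcttGGAAATTCCccgagcct
CXCL3, lower in GSCs and in Diff cells, chr4:74038751-74038775, minus strand: gagctccgGGAATTTCCctggcccg
CXCL8, not called, chr4:73740470-73740494, plus strand: caaatcgtGGAATTTCCtctgacat
TNFAIP3, higher in GSCs and in Diff cells, chr6:137867184-137867209, plus strand: gtgactttGGAAAGTCCCgtggaaat
IL6, lower in Diff cells than in U87, chr7:22727119-22727144, plus strand: tcaaatgtGGGATTTTCCcatgagtc
NFKB2, lower in Diff cells than in GSCs, chr10:102395676-102395701, plus strand: gtattttcGGGACTTTCCtaagctgc
The letters GGAAATTCC of ICAM1 stand also in the windows of NFKBIA, REL and CXCL10, and the stretch shown for CXCL3 stands unchanged in that of CXCL2. NFKBIA was at means of 70.1, 78.6 and 69.2 TPM in U87, GSCs and Diff cells, with log2 fold changes of 0.16 and -0.02 against U87. CXCL8 was at 4.46, 4.81 and 2.87 TPM. REL, an NF-κB subunit, was at means of 3.09, 2.69 and 2.97 TPM, and CXCL2 had log2 fold changes of -0.51 and -0.83 in GSCs and Diff cells against U87, neither gene called. CXCL10 was at or near 0 and not tested. Of the 36 genes of the list with a RefSeq window 14 hold either set of letters (38.9%), beside 2.59% of all 27305 symbols, and since the list was written from NF-κB targets this share follows from how it was made. Of the 12 of them that were tested, 1 was called higher and 1 lower in GSCs against U87, and 1 and 2 in Diff cells against U87. For Diff cells against GSCs these were 1 and 1. The shares called over all tested genes were 17.1%, 12.3% and 8.01% in the same order of comparisons. NFKBIB, called in at least 1 comparison, also holds these letters and is not shown.

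Other Ig-family adhesion genes, 65 in the list and 29 tested, were compared with the members. In GSCs against U87 6 were called higher and 3 lower (31.0%, median 0.16), for Diff cells against U87 2 and 3 (17.2%, median -0.03), and in Diff cells against GSCs 0 and 4 (13.8%, median -0.12), beside 17.1%, 12.3% and 8.01% of all tested genes. LSAMP, an adhesion molecule of limbic neurons, had a larger difference than ICAM1 between GSCs and U87, at means of 7.35 ± 0.520 TPM in U87, 121 ± 13.6 in GSCs and 12.3 ± 0.813 in Diff cells (SD, n = 3). LSAMP rose by 3.86 in GSCs against U87 (limma, adjusted p = 2.18e-08) and fell by 3.19 in Diff cells against GSCs. BCAM, a laminin receptor, and CXADR, the coxsackievirus receptor of tight junctions, were also highest in GSCs, at means of 5.84 and 6.34 TPM beside 1.07 and 1.41 in U87.

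F11R (JAM-A), a tight junction molecule, was at means of 1.70, 10.4 and 9.38 TPM and NECTIN1, which lies 2 tested genes away from MCAM, at 3.31, 15.8 and 12.1 TPM, and both were called higher in GSCs and in Diff cells against U87, as CADM1 was. F11R is uncertain, because 36.6% of its exon bases overlap AL591806.3 on the same strand. PTGFRN, a tetraspanin partner, was at 139, 34.1 and 62.7 TPM and was called lower in GSCs and in Diff cells than in U87.

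ICAM5, which lies next to ICAM1 on the same strand and binds the same LFA-1 integrin on neurons, did not follow it against U87. It was at 33.8, 36.4 and 19.0 TPM in GSCs and at means of 25.6 ± 2.00 TPM in U87 and 9.57 ± 1.42 in Diff cells (SD, n = 3). Its log2 fold change was 0.16 in GSCs (limma, adjusted p = 0.593) and -1.34 in Diff cells (limma, adjusted p = 0.00131) against U87. In Diff cells against GSCs ICAM5 was at -1.49, near the -1.59 of ICAM1. MRPL4, on the other side of ICAM1, was at -0.08 in GSCs and 0.51 in Diff cells against U87. ICAM2 was at a mean of 0.0804 TPM or less in each line, ICAM3 at 0.10 TPM or less, and ICAM4 was listed at 0. VCAM1, the endothelial ligand of VLA-4, was at means of 0.119, 0.306 and 0.555 TPM and below the filter, and PECAM1 was at 2.77, 6.25 and 2.92 TPM with 0.97 in GSCs against U87, not called.

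The genes most like ICAM1 over the 9 libraries, by the root mean square difference of log2 values centred on each gene, were FABP3 (0.147), KLK1 (0.148) and RAC3 (0.177), where the median over protein-coding genes was 1.28. FABP3, a fatty acid binding protein, was at means of 24.0, 205 and 55.4 TPM in U87, GSCs and Diff cells, and RAC3, a small GTPase, at 6.98, 71.0 and 20.8 TPM. KLK1, kallikrein, was at 0.0423, 8.03 and 1.97 TPM. The genes most like CADM1 were PDE4DIP (0.0584), CACHD1 (0.0745) and KCTD7 (0.0798), where the median was 0.67. PDE4DIP was at means of 13.1, 30.9 and 38.6 TPM, CACHD1 at 2.93, 7.74 and 10.2 TPM and KCTD7 at 14.7, 34.9 and 47.7 TPM. All 3 had the order U87, GSCs, Diff cells of CADM1, which follows from their being picked as most like it.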

How the data were processed

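The authors deposited log2(TPM + 1) per gene for 9 libraries, 3 per line, and 0 columns of values were left unused. The submitters' processing notes name FastQC 0.11.9, Trimmomatic 0.39, HISAT2 2.2.1, featureCounts 2.0.5, R 4.2.0 and GRCh38. The annotation, the strand setting of the counting and any filter are not given in the sources used here. Per the labels RNA was extracted with Magzol, depleted of ribosomal RNA and made into directional libraries, whereas the methods of the study describe Trizol and oligo(dT) beads. TPM keeps no depth, so precision rests on the spread between the 3 libraries of a line.

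Values were transformed back to TPM, and a linear model of the 3 groups was fitted to log2(TPM + 1), a pseudocount of 1, for genes whose mean TPM was above 1 (limma 3.58.1 under R 4.3.3, moderated with a mean-variance trend). Benjamini-Hochberg adjustment was applied within each comparison over 22909 genes. Other steps used numpy 2.4.6, pandas 2.3.3 and matplotlib 3.10.9 under Python 3.11.15. In simulated data limma recovered 186 of 200 genes given a log2 change of 2 for GSCs against U87 among 22909, with 8 false calls. The simulated noise was normal and independent, with the spread taken from the same fit. How real TPM values or technical replicates depart from this was therefore not covered. Coordinates, exon overlaps and gene order are those of GENCODE 29, promoters those of RefSeq, matched by symbol.

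The members, lists and tests were chosen with earlier results of these data known. Named were all members, of each list at most the 8 called genes with the largest change plus partners, linkers, sheddases and NF-κB subunits written down by name with the rule (ADAM10, ADAM17, RELA and NFKB1 among them), the 3 genes most like a called member, and nearest neighbours. CD6, ICAM2, ICAM3, ICAM4, VCAM1, PECAM1, NFKBIA, CXCL8, REL, CXCL2, CXCL10, NFKBIB, SELE and the marker genes stand outside this rule and were chosen after their values were seen. Alternatives covered the pseudocount, the filter, the scaling, the samples in the fit, the trend, thresholds, the replicate number and the omission of each library. Some members of the lists are not reported here by name.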

Additional observations from a re-analysis of the deposited data

How the results depend on the processing

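Of 6 members tested, those called against U87, 2 in GSCs and 2 in Diff cells, became 1 and 0 with a pseudocount of 5, 2 and 3 with one of 0.1, where NCAM1 was added in Diff cells, 1 and 1 with a filter at a mean TPM over 5, which removes CADM1, and 5 and 5 with the adjusted p alone; in Diff cells against GSCs the 1 became 4 with the adjusted p alone. Of the other Ig-family adhesion genes, 9 called in GSCs against U87 became 4 with a pseudocount of 5, 5 with the filter over 5 and 19 with the adjusted p alone. Their 5 in Diff cells against U87 became 17 with the adjusted p alone, and their 4 in Diff cells against GSCs became 2, 2 and 15 under the same settings. ICAM1 in Diff cells against U87 was at 0.95 with a pseudocount of 5 (limma, adjusted p = 8.58e-06), under the fold limit. Over all settings its log2 fold change was 2.28 to 3.40 in GSCs and 0.95 to 1.73 in Diff cells against U87 and -1.67 to -1.32 between them.

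Leaving out 1 library at a time left 2, 2 and 1 members called and 8 to 11, 4 to 5 and 3 to 5 other Ig-family genes. It gave 2.97 to 3.16, 1.38 to 1.57 and -1.62 to -1.56 for ICAM1. The sign of values near 0 turned for NCAM1 in GSCs against U87 (-0.077 to 0.029, at 0.027 without U87 library 1, 0.014 without U87 library 2 and 0.029 without GSCs library 1) and for ALCAM in Diff cells against GSCs (-0.0044 to 0.103), the lowest without GSCs library 2. The limma adjusted p of BSG in Diff cells against U87 ran from 0.0046 to 0.106 over all settings, the highest with quantile normalization, and that of MCAM in Diff cells against GSCs reached 0.136 under the same setting.

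Replicate numbers showed no pairing of samples over all tested genes. Deviations of same-numbered libraries correlated at -0.0416 to 0.0489 and of other pairs at -0.0575 to 0.0535. A batch that touched only few genes would not show in these correlations. With a replicate block the calls over all genes went from 2182 higher and 1726 lower to 2189 and 1728 in GSCs against U87, and 2, 2 and 1 members were called, with ICAM1 at 3.09 in GSCs against U87. The block took the limma adjusted p of MCAM in Diff cells against GSCs from 0.0277 to 0.0561 and of BSG in Diff cells against U87 from 0.0296 to 0.0504.

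Of 153 alternative values of the comparisons (ICAM1 and the counts called) 138 kept the direction and the call or stayed within 1.5 times the count, 14 counts moved further and 1 call was lost. Of 252 for the other members 236 kept direction and call, 10 became called, 2 lost the call and 4 turned in sign. Apart from the calls, the adjusted p of a member crossed 0.05 upwards in 21 and downwards in 4. Some changes follow by construction. A larger pseudocount shrinks low genes, the adjusted p alone drops the fold limit from the same fit, and a higher filter removes genes. The cause of the other changes was not tested. Count models (edgeR, DESeq2) were not run, because the table holds no counts. Depth is unknown, so the values of L1CAM and of CADM1 in U87, under 1 TPM, carry an unknown counting error.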
